A study of Mus musculus with 8 samples.

Results

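The liver X receptors (LXRs) are nuclear receptors that sense oxysterols and, as heterodimers with retinoid X receptors (RXRs), switch on genes that move cholesterol out of cells and remodel membrane lipids. Corepressor complexes hold many of these genes down when no ligand is bound. In adipose tissue, adipocytes hold cholesterol in their lipid droplets and macrophages take up lipid that adipocytes release. Both cell types express LXR targets. The 7 genes described here are Abca1, Abcg1, Mylip, Apoe, Lpcat3, Pltp and Smpdl3a, established LXR targets of lipid efflux, lipoprotein handling and phospholipid remodelling. They were picked by symbol, and all 7 were found among the 23212 symbols in the count tables.

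RNA came from whole perigonadal fat of 8 C57BL/6 mice, 4 with an adipocyte-specific gene knockout (KO) and 4 wild type (WT). Mice of both genotypes were 20 weeks old, had been matched for age and weight, and ate a 45% fat diet from 8 weeks of age. The promoter or Cre line behind the knockout is not given in the sources used here. Only adipocytes were targeted, while the RNA is that of every cell in the tissue.

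The promoter of Abca1, the transporter that loads cholesterol and phospholipid onto lipid-poor apolipoproteins, is printed because it was the only member promoter examined that held a match to the LXR-RXR motif. That motif is a direct repeat of AGGTCA with 4 bases between the copies. It was searched on both strands of the 250 bases before each gene start in the RefSeq promoter table (GRCm38.p6), and up to 3 mismatches in the 12 half-site bases were allowed. The window lies at chr4:53159896-53160145 on the minus strand, upstream of the first exon, and overlaps no exon in the GENCODE annotation. It is written 5′ to 3′ on the strand of the gene, with the match in capitals:
Abca1 promoter: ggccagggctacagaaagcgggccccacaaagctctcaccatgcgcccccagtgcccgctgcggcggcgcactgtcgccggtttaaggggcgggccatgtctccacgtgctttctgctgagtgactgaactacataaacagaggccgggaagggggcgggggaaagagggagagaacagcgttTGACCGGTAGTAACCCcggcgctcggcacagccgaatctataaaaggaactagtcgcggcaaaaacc
Abca1 match, opposite strand, half-sites in capitals: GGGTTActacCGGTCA

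The match ran over chr4:53159947-53159962, from 67 to 52 bases before the start, with 3 mismatches to the repeat. A functional LXR element in this part of the promoter is known from work on the human gene. At 3 mismatches, 18.5% of all 32851 windows in the table held a match, so the presence of 1 among the 7 windows of 5 members (Pltp, Abca1, Lpcat3, Apoe and Mylip) is a description only. At 2 mismatches or fewer the share of windows was 2.57%. The RefSeq promoter table held no window under the symbol Abcg1 or Smpdl3a, so these genes were not searched.

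The libraries held 46444435 to 51431956 counts, of which the 7 genes took 0.405% to 0.755%. The defining adipocyte genes were high in every library: Adipoq, which encodes adiponectin, averaged 5110 ± 1356 CPM (read counts divided by the TMM-scaled library total) in KO and 5243 ± 1298 CPM in WT (SD, n = 4 each). Macrophage markers were present in all 8 libraries, with a summed level of 694.7 to 2747 CPM in KO and 499 to 1612 CPM in WT, and none was at 0. All 12 macrophage markers had a log2 fold change above 0 (median 0.54), beside 53.1% of all genes, and none passed the test described below. In their mean log2 CPM, KO 4 was the highest library and WT 1 the lowest, while KO 2 and KO 3 lay below WT 3 and WT 4. KO 2 and WT 3 stood apart through epithelial genes: the cilia regulator Foxj1 stood at 26.1 CPM in KO 2 and 7.97 CPM in WT 3, and at 0.287 CPM or less in the other 6 libraries. Epcam, an epithelial adhesion gene, was at 19.6 CPM in KO 2 and 5.79 CPM in WT 3, and at 0.491 CPM or less elsewhere. The keratin genes of the same marker list did not follow this split: Krt19 was at 34.0 CPM in KO 2 and 35.0 CPM in WT 3, below 85.2 CPM in KO 1 and 115 CPM in WT 2. Krt8 was highest in WT 2, at 29.5 CPM, with 24.0 CPM in KO 2 and 11.5 CPM in WT 3. Krt18 was highest in KO 2, at 35.5 CPM, and was at 16.8 CPM in WT 3, below 24.4 CPM in WT 2. The fold changes of the 7 members are also given without KO 2 and WT 3, and those of other genes are from all 8 libraries. The labels give no batch.

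Knockout was compared with wild type by edgeR's quasi-likelihood test over 14493 genes, with p-values adjusted by Benjamini-Hochberg. No member passed an adjusted p of 0.05 (adjusted p = 0.9999 for each of the 7), where 0.0138% of all genes tested did so. None passed an unadjusted p of 0.05 either, against 2.23% of all genes. KO and WT overlapped for all 7 members, and the groups did not overlap for 1.44% of all genes. Of the 7 log2 fold changes, 3 lay above 0 and 4 below, with a median of -0.02, beside 53.1% above 0 and a median of 0.011 over all genes tested. In whole tissue, fewer cells of a type and less RNA per cell cannot be told apart.

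Abca1 was at 254, 223, 324 and 274 CPM in KO 1 to KO 4, against 335, 248, 299 and 293 CPM in WT 1 to WT 4. The means were 269 ± 42.2 CPM in KO and 294 ± 35.6 CPM in WT (SD, n = 4 each), and KO 3 lay above every WT library but WT 1. The log2 fold change of KO over WT was -0.13 (SE 0.14), a 0.916-fold level with a 95% interval of 0.732 to 1.15. Without KO 2 and WT 3 it was -0.039. Its interval was among the narrowest of the 7 members, and the gene (chr4:53030789-53159895, 50 merged exons) shared no exon base with another symbol.

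Abcg1 encodes the transporter that passes cholesterol to lipoprotein particles that already carry lipid. It was at 80.9, 41.0, 118 and 138 CPM in KO 1 to KO 4, against 138, 58.2, 63.8 and 49.4 CPM in WT 1 to WT 4. In KO the 4 mice were spread over the whole range, whereas in WT a single mouse, WT 1, was high and the other 3 were low. Means were 94.5 ± 42.8 CPM in KO and 77.4 ± 41.0 CPM in WT, and the fold of 1.22 had an interval of 0.626 to 2.38 (log2 fold change 0.29, SE 0.42). Leaving out WT 1 gave a log2 fold change of 0.726 with an unadjusted p of 0.0888 in the edgeR test, leaving out KO 4 gave 0.043, and leaving out KO 2 and WT 3 together gave 0.459. The gene lies at chr17:31057694-31117981.

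**Figure D1:**
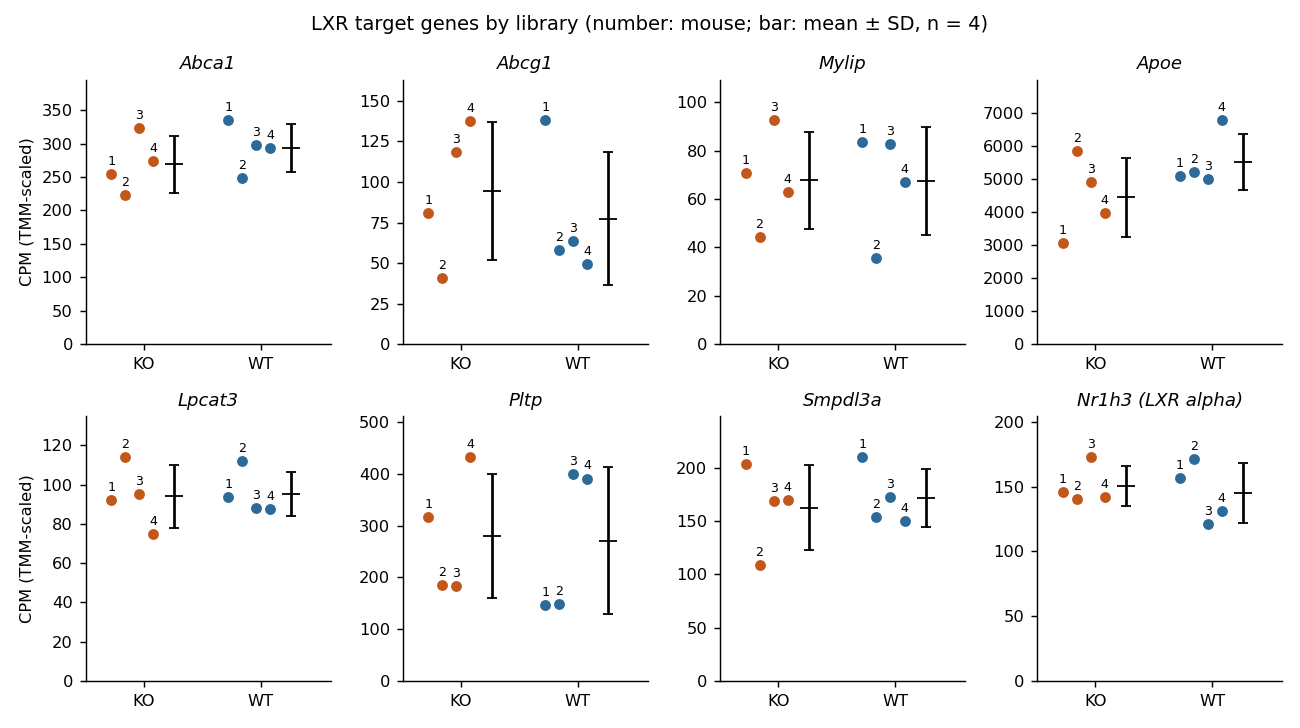
TMM-scaled CPM of the 7 LXR target genes and of Nr1h3, which encodes LXR alpha, in KO (orange, left) and WT (blue, right) libraries. Points are single mice with their number, bars give mean ± SD (n = 4), and KO and WT points overlap in every panel.

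Apoe encodes apolipoprotein E, the lipid carrier that macrophages and adipocytes secrete. It was at 3070, 5840, 4903 and 3964 CPM in KO 1 to KO 4, against 5085, 5214, 4981 and 6776 CPM in WT 1 to WT 4. In KO, 3 of the 4 libraries lay below the lowest WT library, and KO 2, an epithelial-gene library, lay above 3 of the 4 WT libraries. The mean was 4444 ± 1194 CPM in KO and 5514 ± 847 CPM in WT, a fold of 0.806 with an interval of 0.569 to 1.14 (log2 fold change -0.31, SE 0.22, unadjusted p = 0.195 in edgeR). The lowest unadjusted edgeR p of any member in the settings run was that of Apoe without KO 2, at 0.0523. Without KO 2 and WT 3 its log2 fold change was -0.52 (adjusted p = 0.87 in edgeR). Apoe (chr7:19696244-19699166, 4 merged exons) alone took 0.304% to 0.655% of all counts.

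Pltp encodes the phospholipid transfer protein, which moves phospholipid between lipoproteins. It was at 316.5, 186, 184 and 433 CPM in KO 1 to KO 4, against 147, 148, 399 and 391 CPM in WT 1 to WT 4. Both genotypes split the same way, with 2 libraries at 186 CPM or less and 2 at 316.5 CPM or more, and no library between. The means were 279.8 ± 119.7 CPM in KO and 271 ± 143 CPM in WT. The fold was 1.03 with an interval of 0.527 to 2.02 (log2 fold change 0.04, SE 0.43), among the widest of the 7 members. Without KO 2 and WT 3, 1 low and 1 high library, the log2 fold change was 0.442, and without KO 4 it was -0.258. Pltp (chr2:164839518-164857708) shared 495 exon bases with Ctsa, the lysosomal gene beside it, so part of its counts are uncertain. Ctsa was at 224, 157, 204 and 276 CPM in KO 1 to KO 4, against 181, 167, 216 and 207 CPM in WT 1 to WT 4.

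Lpcat3 encodes the acyltransferase that places polyunsaturated fatty acids into phospholipids. It was at 91.9, 114, 95.1 and 74.8 CPM in KO 1 to KO 4, against 93.6, 112, 88.0 and 87.6 CPM in WT 1 to WT 4. The library numbered 2 was the highest in both genotypes, and the other 6 spanned 74.8 to 95.1 CPM. The means were 94.0 ± 16.1 CPM in KO and 95.3 ± 11.4 CPM in WT, a fold of 0.987 with an interval of 0.791 to 1.23 (log2 fold change -0.02, SE 0.14). Without KO 2 and WT 3 the log2 fold change was -0.162. Lpcat3 (chr6:124663104-124704716) shared 289 exon bases with Emg1, a ribosome biogenesis gene at 41.1 ± 4.36 CPM in KO and 37.4 ± 5.77 CPM in WT.

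Smpdl3a encodes a secreted phosphodiesterase of the acid sphingomyelinase family, and its induction by LXR is known from macrophages. It was at 204, 108, 169 and 170 CPM in KO 1 to KO 4, against 210.5, 154, 172 and 151 CPM in WT 1 to WT 4. KO 2 was lower than the other 7 libraries. The means were 163 ± 39.7 CPM in KO and 172 ± 27.4 CPM in WT, a fold of 0.947 with an interval of 0.699 to 1.28 (log2 fold change -0.08, SE 0.19). Without KO 2 and WT 3 the sign turned, to 0.077. The gene lies at chr10:57794544-57811830.

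Mylip encodes IDOL, the ubiquitin ligase through which LXR lowers the LDL receptor on the cell surface. It was at 70.7, 44.4, 92.6 and 63.0 CPM in KO 1 to KO 4, against 83.7, 35.8, 82.7 and 67.1 CPM in WT 1 to WT 4. The library numbered 2 was the lowest in both genotypes. The means were 67.7 ± 20.0 CPM in KO and 67.3 ± 22.4 CPM in WT, a fold of 1.01 with an interval of 0.632 to 1.60 (log2 fold change 0.01, SE 0.29). Without KO 2 and WT 3 the log2 fold change was 0.281. The gene lies at chr13:45389742-45411940.

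**Figure D2:**
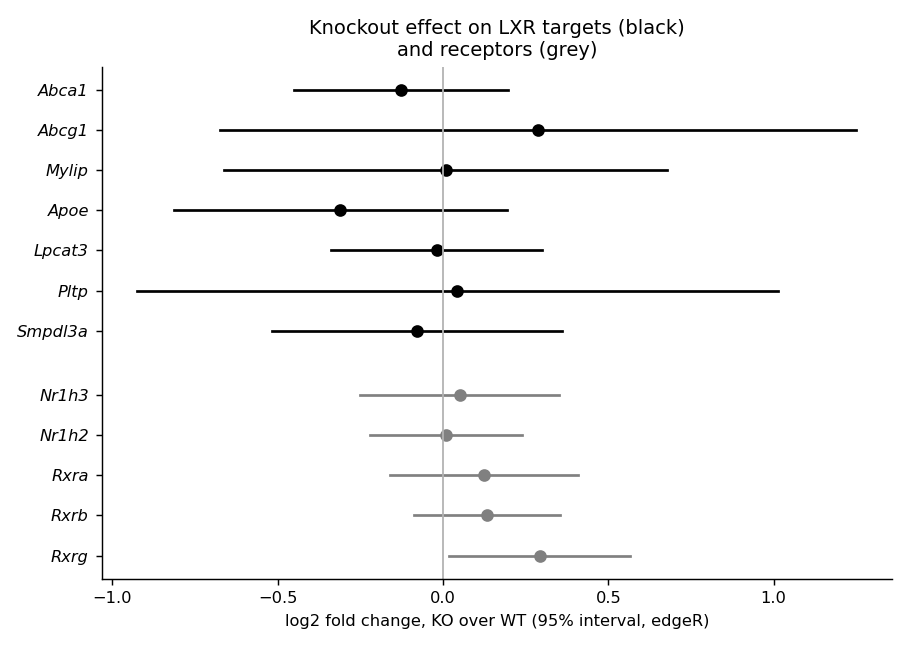
Log2 fold change of KO over WT (x axis) with its 95% interval from edgeR's quasi-likelihood fit, for the 7 LXR targets (black) and 5 LXR and RXR receptor genes (grey). All 7 target intervals cross 0, and those of Abcg1, Pltp and Mylip are wider than those of Abca1 and Lpcat3.

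For levels between genes, CPM was divided by the length of merged exons in kb. That length includes the 495 bases Pltp shares with Ctsa and the 289 bases Lpcat3 shares with Emg1. How reads in shared bases were counted is not given, so the levels of Pltp and Lpcat3, and their places in the order, are uncertain. Apoe had the highest level per kb, 3553 ± 954 in KO and 4408 ± 677 in WT, and lay above every other member in 8 of 8 libraries. Pltp followed at 155 ± 66.3 in KO and 150.3 ± 79.2 in WT, and Smpdl3a at 90.9 ± 22.2 in KO and 96.0 ± 15.3 in WT. The order of these neighbours held in 6 of 8 libraries and their ranges overlapped. It was reversed in WT 1 and WT 2, with Pltp at 81.4 and 82.05 and Smpdl3a at 117.5 and 86.1. Lpcat3 came next at 37.6 ± 6.44 in KO and 38.1 ± 4.57 in WT, its range below that of Smpdl3a. Abca1 was at 26.2 ± 4.12 in KO and 28.6 ± 3.47 in WT, and Mylip at 22.7 ± 6.69 in KO and 22.6 ± 7.50 in WT. Abcg1 was the lowest, at 16.2 ± 7.35 in KO and 13.3 ± 7.04 in WT. The ranges of Lpcat3 and Abca1, of Abca1 and Mylip, and of Mylip and Abcg1 overlapped, although the first of each pair was higher in 8, 8 and 7 of 8 libraries.

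**Figure D3:**
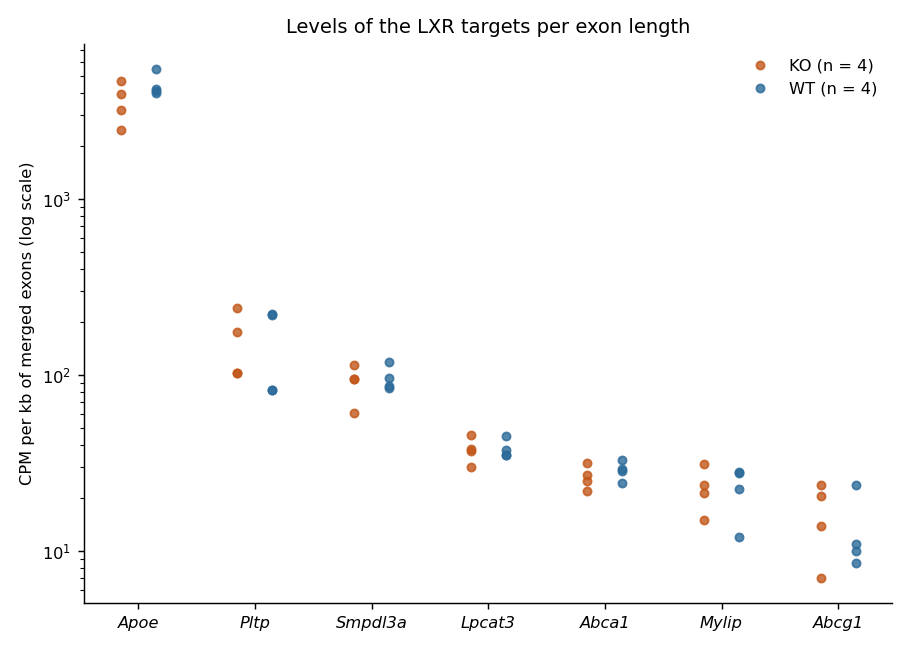
Level of each LXR target as CPM per kb of merged exons on a log axis, with KO libraries (orange) left of WT libraries (blue), 4 points each. Apoe lies above the other genes in every library, and Pltp splits into a low and a high set in both genotypes.

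The members differed in their spread between mice. The SD of log2 CPM over the 8 libraries was 0.684 for Abcg1, 0.671 for Pltp and 0.474 for Mylip. It was 0.347 for Apoe, 0.297 for Smpdl3a, 0.200 for Abca1 and 0.197 for Lpcat3. The median over the 9203 genes at a mean of 10 CPM or more was 0.187, so every member lay above it, while Abca1 and Lpcat3 lay below the median of 0.242 over all genes tested. The highest library exceeded the lowest 3.37-fold for Abcg1, 2.95-fold for Pltp and 2.59-fold for Mylip, but 1.50-fold for Abca1 and 1.53-fold for Lpcat3. The members' lowest counts in a library ran from 1824 for Mylip to 155119 for Apoe.

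Of 14 relations between the 7 members and the mean log2 CPM of the macrophage or adipocyte markers, 1 passed an adjusted p of 0.05. How many of all genes tested follow these markers as closely was not examined. Pltp followed the macrophage markers (Pearson r = 0.94, exact permutation p = 0.00104, adjusted p = 0.0146, n = 8; Spearman rho = 0.95, exact permutation p = 0.00114, adjusted p = 0.016). The macrophage mean was 6.24, 5.13, 5.42 and 6.97 in KO 1 to KO 4, against 4.56, 4.86, 6.34 and 5.97 in WT 1 to WT 4. The 4 libraries highest in Pltp, KO 1, KO 4, WT 3 and WT 4, were also the 4 highest in the macrophage mean. Without the 2 libraries farthest from the median of that mean, r was 0.94 (exact permutation p = 0.0222, adjusted p = 0.156, n = 6). The adjusted exact permutation p was 0.0583 without KO 4, 0.136 without KO 2 and WT 3, and 0.0729 with genotype means removed, at r of 0.94, 0.94 and 0.97. Each of these p-values came from fewer pairings than the p over all 8 libraries. Pltp left a gap between 186 and 316.5 CPM, with 4 libraries on either side. Within the low set, KO 2 and KO 3 were above WT 1 and WT 2 in both Pltp and the macrophage mean. KO 3 was above KO 2 in the macrophage mean but below it in Pltp. Within the high set KO 4 was the highest in both, while KO 1 was above WT 4 in the macrophage mean but below it in Pltp. With 4 libraries in a set, no r is given within sets. Ctsa, which shares 495 exon bases with Pltp, was also highest in KO 1, KO 4, WT 3 and WT 4, at 207 CPM or more. KO 3 followed at 204 CPM, and the part of Ctsa reads in the Pltp relation was not tested.

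Lpcat3 ran against the macrophage markers (r = -0.78, exact permutation p = 0.0207, adjusted p = 0.135, n = 8; rho = -0.76, exact permutation p = 0.0368, adjusted p = 0.257) and did not pass. It passed without WT 1, at r = -0.94 (exact permutation, adjusted p = 0.025), and r was -0.80 without KO 2 and WT 3 (exact permutation, adjusted p = 0.266). The relation was weaker without KO 4, at r = -0.63 (exact permutation, adjusted p = 0.547). With scaling by total counts only, r was -0.64 (exact permutation, adjusted p = 0.409). The remaining members had r of -0.05 (Abca1), 0.12 (Abcg1), 0.26 (Mylip), -0.45 (Apoe) and 0.14 (Smpdl3a) with these markers, and none passed. Abca1 had the highest r with the adipocyte markers (r = 0.77, exact permutation p = 0.029, adjusted p = 0.135, n = 8; rho = 0.64, exact permutation p = 0.0962, adjusted p = 0.449), and r was 0.50 without the 2 libraries farthest from their median. With the adipocyte markers r was 0.55 for Mylip, 0.46 for Abcg1 and 0.36 for Smpdl3a, and -0.30 for Pltp.

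**Figure D4:**
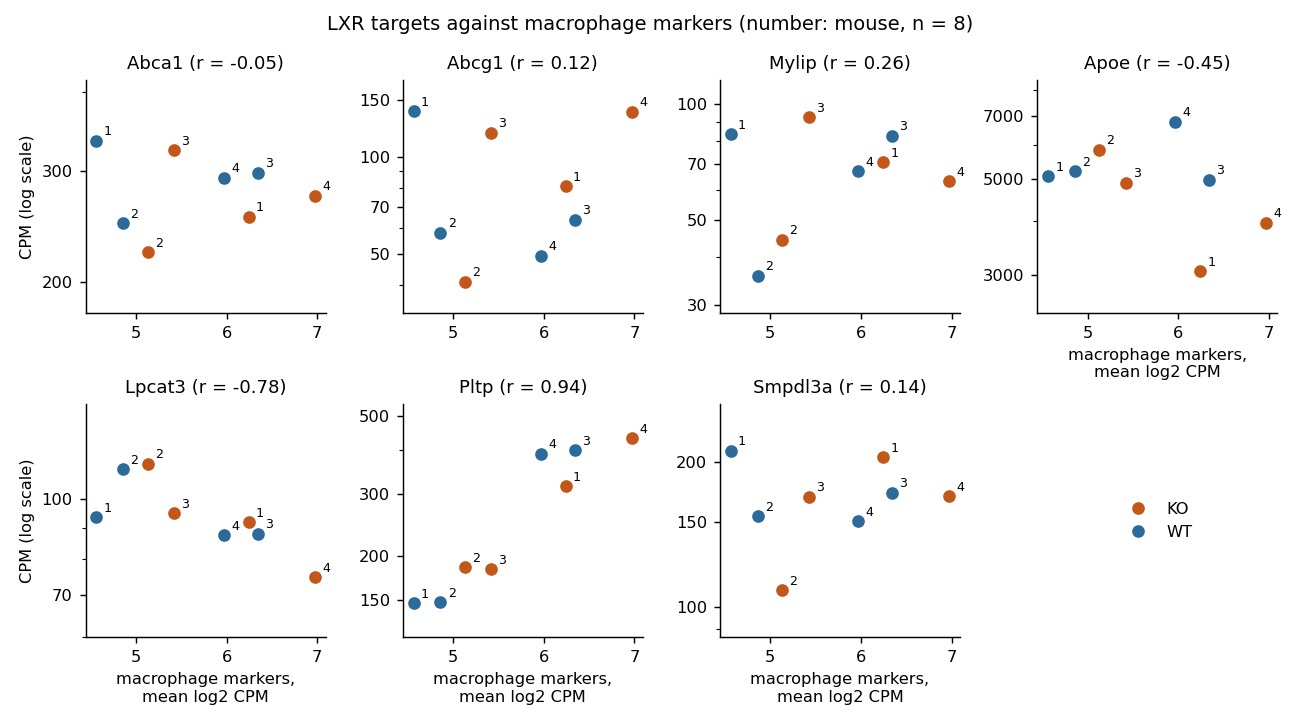
Each LXR target (CPM, log axis) against the mean log2 CPM of 12 macrophage markers in 4 KO (orange) and 4 WT (blue) libraries, numbered by mouse. Pltp rises with the markers over all 8 libraries, which form a low and a high set of 4 (r = 0.94). Lpcat3 runs the other way (r = -0.78), and Abca1 shows no such order (r = -0.05).

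Among the 21 pairs of members, none passed an adjusted p of 0.05. The highest r was that of Abca1 and Mylip (r = 0.83, exact permutation p = 0.00985, adjusted p = 0.142, n = 8; rho = 0.88, exact permutation p = 0.00724, adjusted p = 0.152), and r was 0.74 without the 2 farthest libraries. For a pair, these were the 2 farthest from the median log2 CPM of the gene named last, so they differ between pairs. Lpcat3 and Pltp ran in opposite directions (r = -0.77, exact permutation p = 0.0135, adjusted p = 0.142, n = 8; rho = -0.76, exact permutation p = 0.0368, adjusted p = 0.257). Abcg1 and Smpdl3a had r = 0.73, which was 0.39 without the 2 farthest libraries. Over 8 libraries all 6 correlations among Abca1, Mylip, Smpdl3a and Abcg1 were positive, and Lpcat3 had a negative r with each of these 4 genes. Without the 2 farthest libraries r turned to -0.20 for Abca1 with Smpdl3a, and was 0.22 for Abcg1 with Mylip and -0.025 for Abcg1 with Lpcat3. The transporters Abca1 and Abcg1 had an r of 0.64 with each other, and 0.65 without the 2 farthest libraries. With 1 library left out their r ran from 0.45 without KO 2 to 0.76 without WT 4. It was 0.52 without KO 2 and WT 3.

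**Figure D5:**
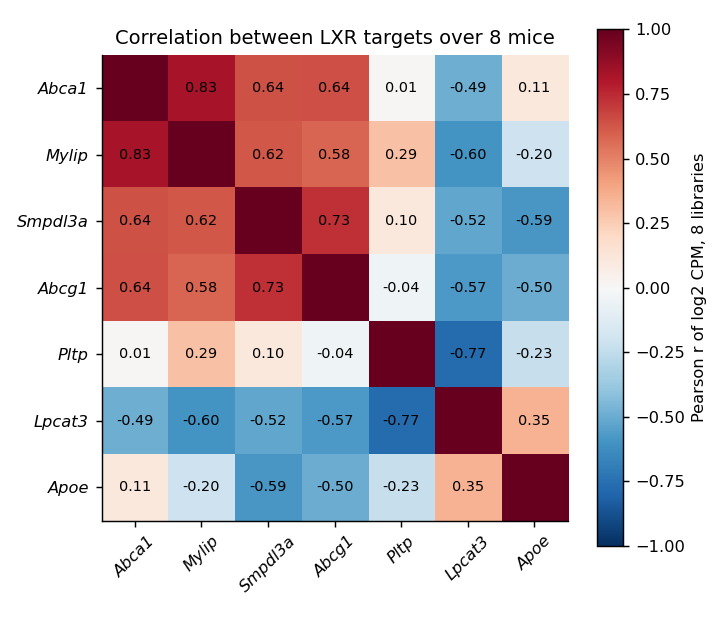
Pearson r of log2 CPM between the 7 LXR targets over 8 libraries, with colour and number giving r for each pair. Abca1, Mylip, Smpdl3a and Abcg1 have r between 0.58 and 0.83 with each other, and no pair passed after adjustment over 21.

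A search for like genes left out symbols of the Gm-number, Rik or LOC kind and database identifiers. Among the 9973 other genes at a mean of 5 CPM or more, the 3 most like each member are given as a description. They had the highest Pearson r of log2 CPM with it over the 8 libraries. For Abca1 they were Zfp799 (r = 0.98), Snrk (0.97) and Ptpru (0.96). For Abcg1 they were Cbll1 (0.99), Slc24a6 (0.97) and Banp (0.96), and the order of KO 4 and WT 1 at the top and KO 2 at the bottom was shared by Banp, at 19.6, 20.5 and 6.94 CPM. For Mylip they were Arhgap31 (0.99), Gpr160 (0.98) and S1pr1 (0.98). For Apoe they were A2ld1 (0.97), Sfmbt1 (0.93) and Gnb5 (0.93), the lowest set of r among the members. For Lpcat3 they were Eif3c (0.98), Slc36a2 (0.98) and Afg3l1 (0.97), of which Slc36a2 spanned 101 CPM in KO 4 to 291.5 CPM in KO 2. For Pltp they were Ptprj, Cfp and Fam105a (each 0.98), and Cfp, which encodes the complement factor properdin, showed the same gap, with 40.6 CPM or less in KO 2, KO 3, WT 1 and WT 2 and 58.4 CPM or more in the other 4. For Smpdl3a they were Ccpg1 (0.97, sharing 304 exon bases with Pigb), Dennd4c (0.97) and Ppp1r13l (0.97).

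The receptors that drive these genes were present in both genotypes. Nr1h3, which encodes LXR alpha, averaged 150.2 ± 15.4 CPM in KO and 145 ± 23.2 CPM in WT (log2 fold change 0.05, SE 0.13). Nr1h2, which encodes LXR beta, averaged 71.1 ± 7.39 CPM in KO and 70.6 ± 5.47 CPM in WT (0.01, SE 0.10). The RXR gene Rxra averaged 327 ± 40.9 CPM in KO and 300.2 ± 30.2 CPM in WT. Of the 5 receptor genes none passed, and all 5 log2 fold changes lay above 0 (median 0.12), beside 53.1% of all genes. Rxrg, at 31.3 ± 1.99 CPM in KO and 25.6 ± 4.08 CPM in WT, had an unadjusted edgeR p of 0.0395. Of 12 receptor cofactors none passed, with 6 above 0 and 6 below. Tbl1xr1, a subunit of corepressor complexes, averaged 57.0 ± 3.96 CPM in KO and 41.9 ± 2.32 CPM in WT without overlap (log2 fold change 0.44, edgeR adjusted p = 0.908). It had the smallest edgeR p of the 12 and was the 1 cofactor without overlap, beside 1.44% of all genes.

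No other LXR target tested passed. Of 11 lipogenic LXR targets 7 log2 fold changes lay above 0 and 4 below (median 0.02). In that list Scd1, the stearoyl-CoA desaturase, averaged 34070 ± 12730 CPM in KO and 49600 ± 11420 CPM in WT (log2 fold change -0.54). Elovl5, a fatty acid elongase, averaged 131 ± 12.1 CPM in KO and 110.5 ± 10.3 CPM in WT (0.25). Mlxipl, which encodes the carbohydrate-responsive factor ChREBP, averaged 66.7 ± 16.7 CPM in KO and 53.4 ± 8.53 CPM in WT (0.32). Of 9 tested further targets 5 lay above 0 and 4 below (median 0.03), with none past the test. Mertk, a receptor for the uptake of dead cells, averaged 27.3 ± 6.40 CPM in KO and 34.1 ± 7.18 CPM in WT, and Cd5l, a secreted macrophage protein, 3.02 ± 1.78 CPM in KO and 4.28 ± 1.03 CPM in WT. Arl4c went the other way, at 13.05 ± 6.655 CPM in KO and 8.59 ± 4.20 CPM in WT (log2 fold change 0.60). Abcg8 had too few counts to be tested.

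Enzymes of oxysterol and other LXR ligand turnover numbered 7, with 3 log2 fold changes above 0 and 4 below (median -0.14, none past the test). Ch25h, the cholesterol 25-hydroxylase, was low, at 0.512 ± 0.177 CPM in KO and 0.378 ± 0.0614 CPM in WT. Of 13 genes of sterol synthesis under SREBP2, the factor activated when cell cholesterol is low, 5 lay above 0 and 8 below (median -0.05, none past the test). Cyp51, a demethylase of that pathway, averaged 35.9 ± 17.6 CPM in KO and 45.6 ± 26.0 CPM in WT.

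Genes of cholesterol handling outside LXR control numbered 11, with none past the test. All 11 log2 fold changes lay above 0 (median 0.25), beside 53.1% of all genes. Soat1, which esterifies cholesterol for storage, averaged 27.6 ± 20.4 CPM in KO and 14.9 ± 5.42 CPM in WT (log2 fold change 0.89). It was at 33.55 and 54.0 CPM in KO 1 and KO 4. In KO 2 and KO 3 it was at 12.1 and 10.8 CPM, within the WT range of 10.6 to 22.7 CPM. Lipa, the lysosomal acid lipase, averaged 128.5 ± 68.9 CPM in KO and 91.1 ± 19.6 CPM in WT (0.50). Its levels were 145 and 219 CPM in KO 1 and KO 4, but 65.0 and 85.5 CPM in KO 2 and KO 3. WT libraries ran from 79.7 to 120 CPM. The macrophage markers given above had a median of 0.54, and their part in the fold changes of these 11 genes was not tested. Of 6 lipoprotein receptors 3 lay above 0 and 3 below, with none past the test. The scavenger receptor Msr1 averaged 11.9 ± 8.00 CPM in KO and 7.19 ± 3.26 CPM in WT, and Lrp1, a receptor for ApoE-rich particles, 645 ± 118 CPM in KO and 589 ± 64.6 CPM in WT. Cd36 lay below 0, at 5171 ± 666 CPM in KO and 5545 ± 739 CPM in WT (log2 fold change -0.10).

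In the enzyme classes of Lpcat3 and Smpdl3a no gene passed. Over all genes tested, 53.1% of log2 fold changes lay above 0, with a median of 0.011. All 6 further lysophospholipid acyltransferases lay above 0 (median 0.08), while Lpcat3 itself was at -0.02. Among them was Mboat7, which acts on lysophosphatidylinositol, at 33.4 ± 1.44 CPM in KO and 30.9 ± 1.94 CPM in WT. All 7 sphingomyelin and ceramide hydrolases lay below 0 (median -0.06), among them Smpd3, the neutral sphingomyelinase, at 37.2 ± 25.6 CPM in KO and 49.4 ± 23.2 CPM in WT.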

How the data were processed

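The authors deposited a table of read counts for each mouse, listed by gene symbol. The counts are whole numbers with unequal totals, so no normalization is seen in them. FastQC 0.11.2, STAR 2.4.0g1, featureCounts, Cufflinks, edgeR and mm10 are named, per the submitters' processing notes. What each was used for, and whether counting used strand, is not given in the sources used here for these counts. The lengths of exons and the exon bases genes share came from the deposited merged annotation. No replicate libraries agreed within sampling noise (smallest chi-square per degree of freedom 63.3).

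Counts were filtered with filterByExpr and scaled by TMM in edgeR 4.0.16 (R 4.3.3), and KO was set against WT by the robust quasi-likelihood F test with no covariate, on 14493 genes. The SE is the one the F statistic implies. CPM uses TMM-scaled library sizes, and log2 CPM for relations used a prior count of 2. Relations were tested over all 40320 pairings of the 8 libraries, two-sided, with adjustment over 14 relations or 21 pairs. Where libraries were left out, all pairings of the remaining ones were used. With genotype means removed, only pairings within each genotype were used. These settings have fewer pairings, so their p-values are not directly comparable with those over all 40320. Alternatives included DESeq2 1.42.0 and limma voom 3.58.1.

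The 7 members and the gene lists were chosen with earlier results of these data known. Named genes were the members, Nr1h2, Nr1h3, Rxra, fixed markers, up to 3 genes of each list with the smallest p, and the 3 genes most like each member. Cfp, Banp and Slc36a2 among these were singled out after their values were seen. Adgre1 was matched as Emr1 and Naxe as Apoa1bp. The targeted gene and a further listed gene are not reported here.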

Additional observations from a re-analysis of the deposited data

Results flagged for a closer look

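The values of 24 groups, each of 4 libraries, were screened for a single distant library, and 1 was found. Chance alone gives about 1 in 20, or 1.2 groups. The group was Apoe in WT, with a log2 CPM of 12.73 in WT 4 and 12.28 to 12.35 in WT 1 to WT 3. The gap took up 0.852 of the range of the group. Apoe in the KO libraries was not marked in this way.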

How the results depend on the processing

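No member passed an adjusted p of 0.05 in any setting run. Across these settings Abca1 (log2 fold change -0.23 to -0.039), Abcg1 (0.043 to 0.726) and Apoe (-0.516 to -0.17) kept their sign. The other members did not, and the cause was not tested. Mylip turned to -0.001 with no low-count filter, and with 1 library left out spanned -0.202 to 0.161, below 0 at -0.014, -0.182 and -0.202 without KO 1, KO 3 and WT 2. Lpcat3 turned to 0.012 with total counts, and spanned -0.13 to 0.068 with 1 library left out, above 0 at 0.068 and 0.066 without KO 4 and WT 2. Pltp spanned -0.258 to 0.289, below 0 at -0.02, -0.258, -0.161 and -0.159 without KO 1, KO 4, WT 1 and WT 2. Smpdl3a spanned -0.206 to 0.071, above 0 at 0.071 and 0.034 without KO 2 and WT 1, and to 0.077 without KO 2 and WT 3. Over all genes 2 passed, both lower in KO, and also 2 with median-ratio factors, a filter of 1 CPM in 4 libraries and non-robust dispersion. With total counts, no filter, voom, or without KO 2 and WT 3, 0 passed, against 309, 557, 280 and 805 at an unadjusted p of 0.05, and 0 passed without any 1 library (range 0 to 0, with 243 to 579 unadjusted). DESeq2 called 17, 8 higher and 9 lower. Total-count scaling moved the median of all genes to 0.044. Of the 14 relations 1 passed, 0 with genotype means removed or without KO 2 and WT 3, and 0 to 2 with 1 library left out (0 without KO 4, 2 without WT 1). Among the 21 pairs 0 passed throughout. Samples share only a replicate number: same-numbered deviations had r of 0.117, -0.015, -0.32 and -0.017, and KO 3 had its highest r with WT 1 (0.395). With the replicate block 0 genes passed (270 unadjusted). The lowest count of a member in a library was 1824 (Mylip), and no setting varied depth.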
